A study of Oryza sativa with 4 samples.

Results

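The strigolactone branching genes are 6 rice loci chosen by locus name, without use of their measured values: D27, D17 and D10, which act in synthesis of the hormone, and D14, D3 and D53, which act in its perception. Of the 6, 5 had a row in the authors' expression table of 55986 loci, and D27 (LOC_Os11g37650) was not analysed here. The study asked which genes are under the control of OsGRF6, a growth-regulating transcription factor whose messenger RNA is cut under the guidance of the microRNA miR396. There were 4 libraries, with 1 for each of 4 groups. A MIM396 RNA library came from plants that carry MIM396, a decoy target for miR396 driven by the constitutive 35S promoter, and the wild-type RNA library from the variety Yutai B. Both are labelled as panicles at the stage of secondary branch development. An OsGRF6-GFP ChIP library and a ChIP input library came from callus of transgenic lines that express OsGRF6 fused to GFP from the 35S promoter. The sources used here do not give how many plants or lines were pooled for a library. With 1 library per genotype there is no replicate error and no test of genotype, so each difference below describes a pair of libraries. All intervals are at 95% and reflect counting error alone.

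Strigolactones are plant hormones made from carotenoids, and rice mutants that cannot make or perceive them are dwarf and form many tillers (basal side shoots). D27 is a carotenoid isomerase, D17 and D10 are carotenoid cleavage dioxygenases that act after it to form carlactone, and cytochrome P450 enzymes of the MAX1 type oxidise carlactone further. The hormone is bound by D14, a hydrolase-type receptor, which then joins D3, the F-box subunit of a ubiquitin ligase. This complex marks D53, a repressor of the response, for degradation. D53 works with corepressors of the TOPLESS type and restrains the activity of SPL14 (also called IPA1), a transcription factor of shoot and panicle branching.

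The libraries differed in tissue markers and in depth. The table held 13125592 recovered reads in the MIM396 library and 16337526 in the wild-type library. The top 50 loci of each library held 11.4% of its reads in MIM396 and 23.6% in wild type. OsGRF6 (LOC_Os03g51970) had 62.0 FPKM (fragments scaled to locus length and library size, computed by the authors) in the MIM396 library and 0.0818 FPKM, from 2 reads, in the wild-type library. Of 15 panicle and meristem loci, 13 had at least 1 FPKM in the MIM396 library and 5 in the wild-type library, with summed levels of 441.4 and 131.1 FPKM. Of the 15, 8 were listed at 0 in the wild-type library and none in the MIM396 library. The 8 included the meristem genes OSH1 (134.2 FPKM in MIM396), OSH15 and RFL. Of the 8, FZP (7 reads) and APO1 (2 reads) were under 1 FPKM in the MIM396 library too and do not separate the libraries. MADS14, a floral transition gene, had 94.0 FPKM in the MIM396 library and 110.8 FPKM in the wild-type library. FON1, a meristem receptor kinase gene, was lower in the MIM396 library, with 1.23 FPKM against 6.499 FPKM in the wild-type library, and IDS1 had 1.65 FPKM in the MIM396 library and 3.35 FPKM in the wild-type library. All 13 green-leaf loci, which encode light-harvesting proteins, Rubisco small subunits and Rubisco activase, were lower in the MIM396 library. They ranged over 0.134 to 11.99 FPKM in the MIM396 library and 903.7 to 17544 FPKM in the wild-type library, where they made up 11.2% of the summed FPKM. The marker identities rest on general knowledge of the loci and not on the files. The wild-type library thus lacked reads for 8 of 15 markers of its labelled tissue while it held others, and the part of tissue makeup in every difference given here was not tested. In bulk tissue, fewer cells of a type and less RNA per cell cannot be told apart.

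**Figure D1:**
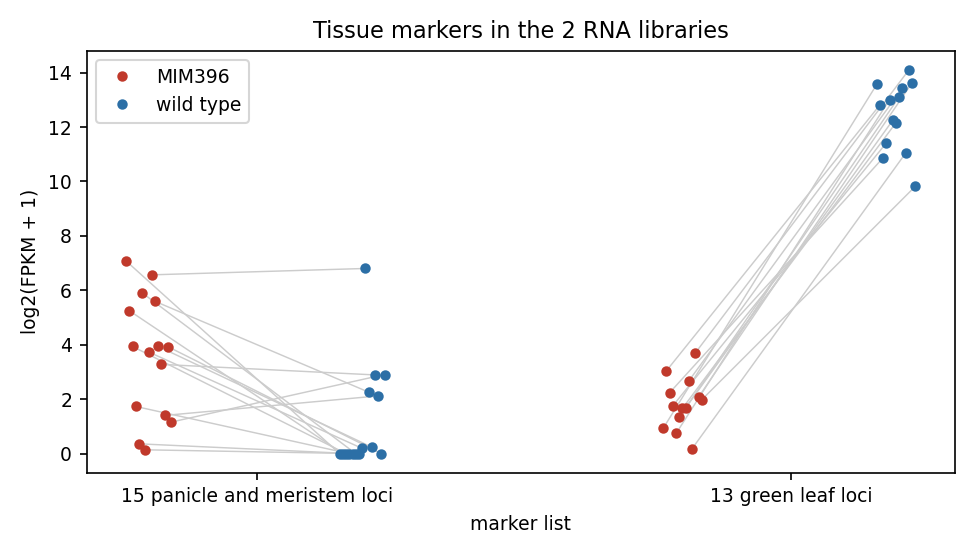
Each point is 1 marker locus, plotted as log2(FPKM + 1), with MIM396 in red on the left and wild type in blue on the right of each list, and grey lines joining the same locus. The 13 green-leaf loci lie between 903.7 and 17544 FPKM in wild type and at 11.99 FPKM or less in MIM396, and 8 of the 15 panicle and meristem loci lie at 0 in wild type.

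In FPKM, a level scaled by length, the members fell into the same broad order in both libraries, with the receptor D14 at the top, D3 and D53 in the middle and the synthesis genes D17 and D10 at the bottom. D14 (LOC_Os03g10620) ranked 785 among all 55986 loci in the MIM396 library and 304 in the wild-type library. D3 and D53 were separated in the MIM396 library, where D3 was higher, at 23.0 FPKM (21.8 to 24.1, exact Poisson) against 12.7 FPKM (11.9 to 13.6) for D53. In the wild-type library their intervals overlapped, with 14.04 FPKM (13.1 to 15.1) for D3 and 14.6 FPKM (13.6 to 15.6) for D53. The intervals of D17 and D10 did not overlap in the MIM396 library (2.71 to 3.803 and 0.132 to 0.474 FPKM) and did in the wild-type library (0.0469 to 0.337 and 0.000760 to 0.167 FPKM). The place of D17 in this order rests on how reads were divided with another locus at the same position. Together the D17 locus and that locus had 9.63 FPKM in the MIM396 library and 15.6 FPKM in the wild-type library.

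**Figure D2:**
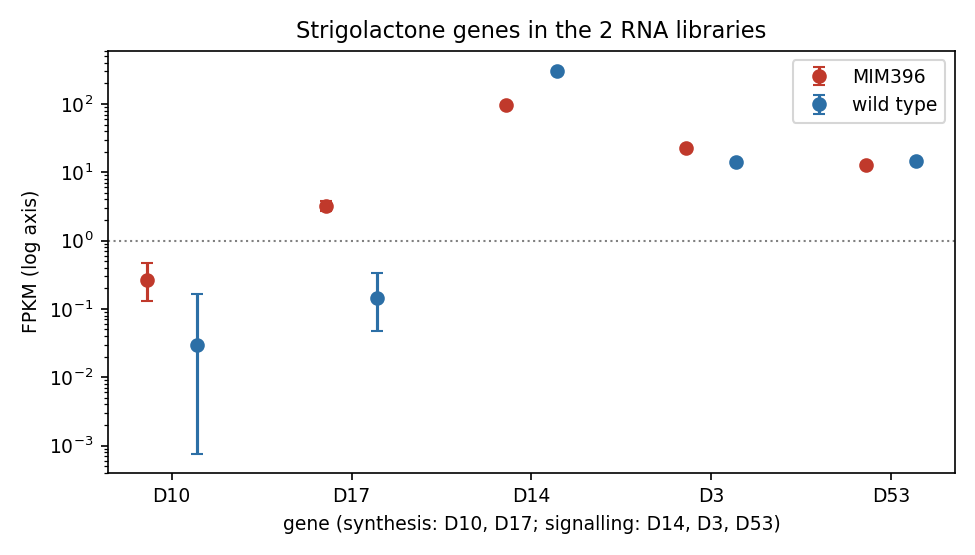
FPKM of the 5 measured members on a log axis, with MIM396 in red left of wild type in blue, 1 library each. Bars are 95% exact Poisson intervals of counting error (smaller than the point for D14, D3 and D53), and the dotted line marks 1 FPKM. D14 lies lower and D17 and D3 higher in MIM396, while D10 stays under 1 FPKM in both.

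Of the synthesis genes, D17 was higher in the MIM396 library and D10 was close to the limit of detection in both. D17 (LOC_Os04g46470, chromosome 4, 27567823 to 27572716) had 3.22 FPKM from 139 reads in the MIM396 library and 0.144 FPKM from 5 reads in the wild-type library. The ratio of scaled reads was 22.2 (9.29 to 69.4), and the log2 ratio of FPKM + 1 was 1.88. That log2 ratio was exceeded by 11.4% of the 19456 loci whose mean reached 1 FPKM. The D17 value is uncertain, because the table gives LOC_Os04g46480 the same interval. That neighbour went the other way, with 6.41 FPKM from 176 reads in the MIM396 library and 15.5 FPKM from 341 reads in the wild-type library. The sources used here do not say whether strand was used in counting. Reads of the whole interval numbered 315 in the MIM396 library and 346 in the wild-type library, a scaled ratio of 0.727 (0.622 to 0.849). D17 was given 44.1% of them in the MIM396 library and 1.45% in the wild-type library. At equal totals the ratio of the whole interval was 1.13, so its direction depended on the scaling, while the division of its reads did not. The call of D17 was lost with a pseudocount of 5 FPKM, where its log2 ratio was 0.68, and with a floor of 5 FPKM on the mean.

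D10 (LOC_Os01g54270, chromosome 1, 31220320 to 31228566) had 0.265 FPKM from 11 reads in the MIM396 library and 0.0300 FPKM from 1 read in the wild-type library. The ratio of scaled reads was 8.78, with an interval of 1.28 to 378.1. Both levels lie under the floor of 1 FPKM on the mean, so D10 was not called by size.

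Of the perception genes, the receptor D14 was lower in the MIM396 library. D14 (chromosome 3, 5422147 to 5426577) had 98.1 FPKM from 2697 reads in the MIM396 library and 307.9 FPKM from 6802 reads in the wild-type library. It was 3.16-fold lower in scaled reads (3.02 to 3.30), with a log2 ratio of -1.64. Of those 19456 loci, 19.1% had a lower ratio than D14, so it lay in the lower part of a wide distribution and not at its edge. With the libraries brought to equal totals the log2 ratio of D14 was -1.004, at the 2-fold limit.

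D3 (LOC_Os06g06050, chromosome 6, 2780714 to 2785271) had 23.0 FPKM from 1567 reads in the MIM396 library and 14.04 FPKM from 767 reads in the wild-type library. It was 1.63-fold higher in scaled reads (1.495 to 1.78), with a log2 ratio of 0.67, which is under the 2-fold limit. At equal totals its log2 ratio was 1.28, and it was 1.05 when the top 50 loci by reads in either library were dropped before equal totals were set. Both of these are past the limit. The median of all loci past the floor also rose under these settings, to 0.59 and 0.37.

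D53 (LOC_Os11g01330, chromosome 11, 194175 to 199479) had 12.7 FPKM from 911 reads in the MIM396 library and 14.6 FPKM from 834 reads in the wild-type library. The ratio of scaled reads was 0.872 (0.793 to 0.959) and the log2 ratio -0.18. Its direction depended on the scaling, with a log2 ratio of 0.42 at equal totals and 0.19 after the top 50 loci were dropped. Both values were below the median of all loci under the same setting (0.59 and 0.37). D53-like (LOC_Os12g01360, chromosome 12, 220455 to 225846), a close copy of D53, had 10.6 FPKM from 738 reads in the MIM396 library and 18.7 FPKM from 1040 reads in the wild-type library. The sources used here do not say how reads that match both copies were assigned, so each of these values is uncertain. Summed over both copies, the level was 23.3 FPKM in the MIM396 library and 33.2 FPKM in the wild-type library, a scaled ratio of 0.703 (0.657 to 0.751) that became 1.10 at equal totals. D53 took 55.2% of the reads of this pair in the MIM396 library and 44.5% in the wild-type library.

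Of the 6 members, 4 had a mean of at least 1 FPKM. By size, 1 of these was higher in the MIM396 library (D17), 1 was lower (D14), and 2 were neither (D3 and D53). Over all 19456 loci past the same floor, 23.1% were at least 2-fold higher, 27.3% at least 2-fold lower and 50.4% either. A share of 2 in 4 members is thus close to the share of all loci. D17 passed the floor only through the MIM396 library, where it is high, so it had to differ. The median log2 ratio was 0.25 over the 4 members and 0.00 over all loci, whose quartiles were -1.16 and 0.91. The member median includes D17, so it is not read against that of all loci. Over all loci the split was 4493 higher and 5310 lower under the authors' scaling, and 7315 higher and 3900 lower at equal totals, where the median of all loci was 0.59. In the authors' deposited table, none of the 5 members had an FDR (a p-value corrected over many loci) under 0.05. Their FDR ran from 0.174 for D10, which was under the floor, to 0.892 for D53. Of the loci past the floor, 13.5% had an FDR under 0.05 in that table. With 1 library per genotype, that FDR cannot measure spread between plants.

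**Figure D3:**
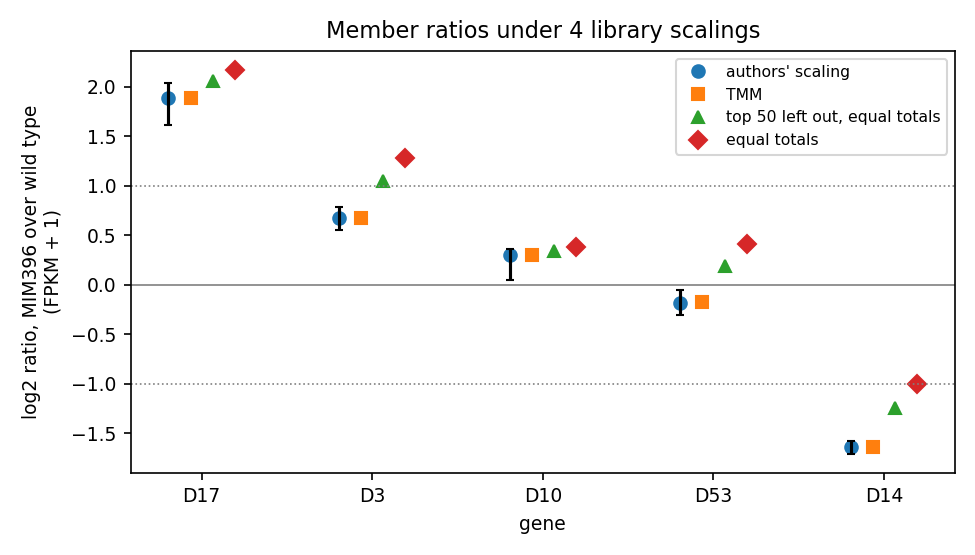
The log2 ratio of MIM396 over wild type (FPKM + 1) for the 5 measured members under 4 scalings of the libraries, with the 95% counting interval on the value under the authors' scaling. Dotted lines mark the 2-fold limits. D17 stays above the upper limit and D14 at or below the lower one, D3 crosses the upper limit in 2 of the 4 scalings, and D53 changes side of 0.

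Quotients between genes within a library do not depend on how the libraries are scaled, and 8 such pairs were computed. The receptor D14 had 4.27 times the FPKM of D3 in the MIM396 library and 21.9 times in the wild-type library. The quotient was 0.194 of the wild-type one (0.176 to 0.214, exact conditional interval on reads). D14 over D53 was 7.71 in the MIM396 library and 21.2 in the wild-type library, and their ratio was 0.363 (0.327 to 0.403). D53 over D3 was 0.554 in the MIM396 library and 1.04 in the wild-type library, a ratio of 0.535 (0.470 to 0.609). D14, D3 and D53 were thus present in different proportions in the libraries, beyond counting error and under any library scaling. Quotients with D53, here and below, also carry the uncertainty of how reads were divided between its copies. The intervals do not cover that uncertainty.

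The proportion of D14 to D14-like differed by less than counting error. D14-like (LOC_Os03g32270) is the related receptor for karrikins, compounds found in smoke, and had 19.4 FPKM in the MIM396 library and 60.5 FPKM in the wild-type library. D14 over D14-like was 5.06 in the MIM396 library and 5.09 in the wild-type library, a ratio of 0.996 (0.880 to 1.13). D53 over D53-like was 1.20 in the MIM396 library and 0.779 in the wild-type library, a ratio of 1.54 (1.34 to 1.76), with the uncertainty of the copies given above. SMAX1, a relative of D53 in the karrikin response, was lower relative to D53 in the MIM396 library. SMAX1 over D53 was 0.399 in the MIM396 library and 3.06 in the wild-type library, a ratio of 0.131 (0.112 to 0.152). For D17 over D3 the quotients were 0.140 in the MIM396 library and 0.0103 in the wild-type library, a ratio of 13.6 (5.65 to 42.7), and the shared interval of D17 bears on it. For D17 over D10 the ratio of quotients was 2.51, with an interval of 0.0490 to 25.5 that includes 1.

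The other 15 loci of the pathway were chosen by role, with D14-like and SMAX1 of the karrikin response among them, and identified from general knowledge. Of these, 11 reached a mean of 1 FPKM. Among the 11, 3 were higher, 5 lower and 3 neither in the MIM396 library, with a median log2 ratio of -0.76. With the locus that had 0 reads in wild type set to a floor of 3 reads there, the median was again -0.76. TB1, MADS57 and the MAX1-type locus on chromosome 2 reached the floor only through the library where they are high, so they had to differ. Nothing is read from that median, or from these counts beside the 23.1% higher and 27.3% lower of all loci.

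Among synthesis genes outside the members, the MAX1-type P450 locus on chromosome 2 (LOC_Os02g12890) had 0.186 FPKM from 6 reads in the MIM396 library and 7.19 FPKM from 199 reads in the wild-type library. It was 41.5-fold lower (18.7 to 114.5), the opposite direction to D17. The MAX1-type locus on chromosome 6 (LOC_Os06g36920) had 1.09 FPKM in the MIM396 library and 0.771 FPKM in the wild-type library, a ratio of 1.41 (0.753 to 2.72). D10-like (LOC_Os01g38580), a relative of D10, had 7 reads in the MIM396 library and 2 in the wild-type library. NSP1 and NSP2, GRAS-family regulators of strigolactone synthesis, were listed at 0 in both libraries. Apart from D17 in MIM396 and the chromosome 2 P450 in wild type, measured synthesis genes, NSP1 and NSP2 were near or under 1 FPKM. D27 and any MAX1-type loci other than those named were not looked at, so this is not a survey of synthesis.

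Of the 6 other signalling loci, 1 was higher and 3 were lower in the MIM396 library. Over all 19456 loci past the floor, 23.1% were higher and 27.3% lower, and nothing is read from counts this small. The 3 lower signalling loci include SMAX1 and D14-like, which belong to the related karrikin response. SMAX1 (LOC_Os08g15230) had 5.08 FPKM in the MIM396 library and 44.5 FPKM in the wild-type library and was 8.78-fold lower (7.81 to 9.90). D14-like was 3.15-fold lower (2.80 to 3.54), and at equal totals its log2 ratio of -0.97 was within the 2-fold limit. The corepressors of the TOPLESS type, which D53 recruits, differed among themselves. TPR3 (LOC_Os03g14980) had 155.8 FPKM in the MIM396 library and 59.5 FPKM in the wild-type library, 2.61-fold higher (2.51 to 2.71). TPR1 (LOC_Os01g15020) had 11.3 FPKM in the MIM396 library and 54.8 FPKM in the wild-type library, 4.88-fold lower (4.53 to 5.27). ASP1 (LOC_Os08g06480), a TOPLESS-related gene of panicle development, had 31.6 FPKM in the MIM396 library and 53.4 FPKM in the wild-type library, a ratio of 0.590 (0.560 to 0.621), within the 2-fold limit.

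The downstream loci included SPL14, with the highest log2 ratio of the 11 loci, and others that differed in both directions. SPL14 (LOC_Os08g39890), which miR156 targets, had 631.0 FPKM from 18081 reads in the MIM396 library and 1.82 FPKM from 42 reads in the wild-type library. It was 343.8-fold higher (254.2 to 477.1), and 13 of the 19456 loci had a higher log2 ratio. D53 restrains the activity of SPL14, which RNA levels do not measure. TB1 (LOC_Os03g49880), a TCP factor that restrains side shoots, had 5.27 FPKM from 175 reads in the MIM396 library and 0 reads in the wild-type library. Against a floor of 3 reads in the wild-type library its ratio was 46.6, and the lower end of its exact interval was 37.5. MADS57 (LOC_Os02g49840), listed with the downstream loci, is a MADS-box factor reported to regulate D14, which places it before the receptor. It had 0.0890 FPKM from 2 reads in the MIM396 library and 10.2 FPKM from 181 reads in the wild-type library. Its ratio of scaled reads was 0.00882 (0.00106 to 0.0323). CKX9 (LOC_Os05g31040), a cytokinin oxidase gene induced by strigolactone, had 4.23 FPKM in the MIM396 library and 2.43 FPKM in the wild-type library, a ratio of 1.73 (1.26 to 2.4001). Its log2 ratio of 0.61 was within the 2-fold limit and became 1.09 at equal totals. In the authors' deposited table, 4 of the 15 loci had an FDR under 0.05, all of them among the 11 past the floor. They were SPL14 (8.25e-05), the chromosome 2 MAX1-type locus (0.00619), MADS57 (0.0204) and SMAX1 (0.0392). Among all loci with a mean of 1 FPKM or more, 13.5% had such an FDR, which does not measure spread between plants. The panicle and leaf markers given above differed in the same pair of libraries, and their part in these ratios was not tested.

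**Figure D4:**
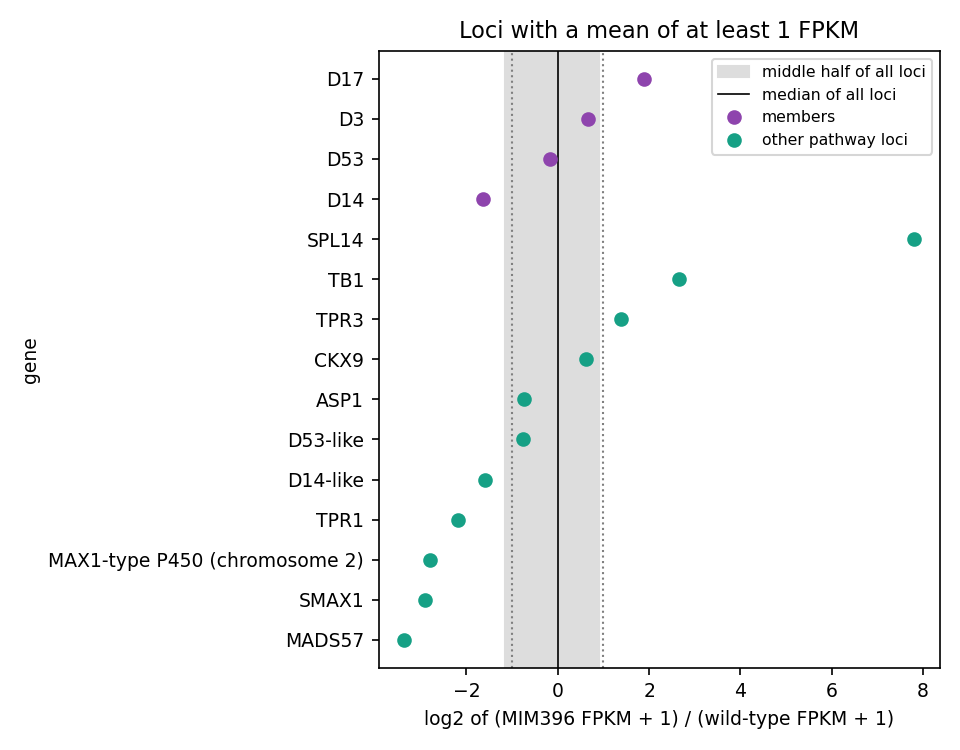
The log2 ratio of MIM396 over wild type (FPKM + 1) for the 4 members (purple) and 11 other pathway loci (green) whose mean reached 1 FPKM. The grey band runs between the quartiles of all 19456 loci (-1.16 to 0.91) and dotted lines mark the 2-fold limits. SPL14, TB1, D17 and TPR3 lie above the upper limit, and D14, D14-like, TPR1, the MAX1-type P450 of chromosome 2, SMAX1 and MADS57 lie below the lower one.

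The binding data address whether OsGRF6-GFP occupied these loci in callus. None of the 6 members and none of the 15 other loci was among the genes that the authors placed at their 142 listed peaks, which reach up to 3 kb from a gene. Among the 5 members with coordinates, the nearest listed peak lay 56.4 kb from D10 (peak 24, chromosome 1, 31162942 to 31163915) and 96.3 kb from D3 (peak 112, chromosome 6, 2683257 to 2684451). It lay 357.5 kb from D17, 2.89 Mb from D14 and 2.89 Mb from D53. None of the 20 loci of both lists with coordinates had a listed peak within 10 kb. The list holds gene-assigned peaks from 1 ChIP library, so a peak that is not in it was not analysed here.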

How the data were processed

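RNA was sequenced from 1 MIM396 and 1 wild-type library, both labelled as panicles, and chromatin from 1 OsGRF6-GFP ChIP and 1 input library of callus. The deposited expression table gives FPKM, which the authors computed with a scaling that the file headers do not state, and a read signal named as counts. That deposited signal is read counts times 1 factor per library: 0.844 per read in MIM396 and 1.06 in wild type. After division, 98.6% of positive values in MIM396 and 98.2% in wild type were whole to within 0.01, and the nearest whole number was used as reads (13125592 in MIM396, 16337526 in wild type). The authors' deposited FDR is a p-value corrected over many loci, and the sources used here do not name its test. It rests on 1 library per genotype, so it cannot measure spread between plants. FastQC and Bowtie are named in the submitters' processing notes. The counter, genome build and annotation are likewise not named in these sources, and coordinates are as the deposited files give them. Deposited peak identifiers begin with MACS, a peak caller, and give positions only.

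Ratios were taken as log2((MIM396 FPKM + 1)/(wild-type FPKM + 1)), a scale on which differences of low loci look smaller than they are. Calls were by size: a log2 ratio of 1 or more, or of -1 or less, and a mean of 1 FPKM or more. Single ratios use scaled reads with an exact conditional binomial (Clopper-Pearson) interval, levels an exact Poisson interval, and quotients between loci an exact conditional odds ratio interval (scipy 1.17.1). Reads here carry no molecular identifiers, so they are not independent molecules. No count test was possible with 1 library per group, and edgeR 4.0.16 gave TMM factors only. The size rule and intervals were tested on simulated data with counting error alone, so that check does not cover spread between plants or libraries. The rule for named genes took all 6 members and all 15 other pathway loci. No locus of like pattern was named, since a pair of libraries defines no pattern. The reference name table matched 0 of the listed loci, so names rest on the member list and general knowledge, and no sequence is shown. OsGRF6 and the neighbour of D17 were added after their values were seen. The members were chosen by locus name and not by their values, but they and the lists were chosen with earlier results of these data known.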

Additional observations from a re-analysis of the deposited data

How the results depend on the processing

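The member ratios were recomputed under 5 alternatives. With TMM factors no value left its counting interval. At equal totals the log2 ratios were 1.28 for D3, 0.38 for D10, -1.004 for D14, 2.17 for D17 and 0.42 for D53, and 2 members were higher. When the top 50 loci by reads in either library were dropped before equal totals were set, they were 1.05 for D3, -1.24 for D14, 2.06 for D17 and 0.19 for D53, again with 2 members higher, and SPL14 was among the loci dropped. Each library's factor is the same for every locus, but with 1 FPKM added low loci such as D10 moved less than D3 and D14. A pseudocount of 0.1 gave 1.49 for D10 and 3.76 for D17, and one of 5 gave 0.68 for D17 and left 0 members higher. A floor of 5 FPKM also left 0 members higher, and a 4-fold limit left 0 higher and 0 lower. Over all loci, the number higher was 4493 of 19456 in the main setting. It was 7315 of 19490 at equal totals and 6061 of 19366 with the top 50 loci dropped. It was 2731 with a pseudocount of 5, 2999 with a floor of 5 FPKM and 2014 with a 4-fold limit, where 3029 were lower. The counts over all loci moved too, so the member counts are not read as a result about the members. The log2 ratio of summed marker levels was 1.75 for the panicle list and -11.05 for the leaf list, and 2.39 and -10.41 at equal totals. None of the 20 member and pathway loci with coordinates had a listed peak within 10 kb. No paired analysis was possible because each group held 1 library. Depth limits D10, D10-like and the wild-type value of D17, which rest on 1, 2 and 5 wild-type reads.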
